A study of Mus musculus with 68 samples.

Results

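Hedgehog pathway genes were followed across single cells of the developing mouse cerebral wall measured by microarray. The 9 genes were *Gas1*, *Cdon*, *Boc*, *Ptch1*, *Smo*, *Sufu*, *Gli2*, *Gli3* and *Gli1*, and every probe set that the platform annotation gives to exactly 1 of them was taken, 23 probe sets of the 45101 on the array and 9 genes of the 18194 with such a probe set. All cells came from the dorso-lateral cerebral wall of CD1 mice. The 68 arrays held 4 apical progenitors (APs, the dividing cells that line the ventricle) carrying NICD and p18, 3 APs from neurospheres, 30 cells of E11, 3 APs of E12 and 28 cells of E16. NICD is the active intracellular piece of the Notch1 receptor, driven by a CAG promoter plasmid, and p18 is the cell cycle inhibitor Cdkn2c, driven by an EF promoter plasmid. Both plasmids entered E11 walls together by electroporation and the cells were picked 3 days later, whereas neurosphere cells were E11 cells kept for 3 days in suspension with FGF2 and EGF. Each array held the amplified RNA of 1 cell. E11, E12 and E16 cells received no plasmid, and the study chose them for the arrays by qPCR of marker genes. No label says which embryo or culture a cell came from, so each group counted as 1 sample, SDs are between cells, and no difference was tested.

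The Hedgehog pathway passes a secreted ligand to gene regulation through the primary cilium. Ptch1 is the receptor that holds the membrane protein Smo inactive until a ligand binds, and Gas1, Cdon and Boc are co-receptors that help Ptch1 bind it. Active Smo frees the Gli transcription factors from Sufu. Gli2 acts mainly as an activator and Gli3 mainly as a repressor when the pathway is silent, while Gli1 and Ptch1 are themselves transcriptional targets and are commonly read as signs of an active pathway. In the embryonic forebrain the pathway is known for ventral patterning, and Gli3 for keeping the dorsal side free of it.

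Upstream sequence was available for 7 of the 9 genes (RefSeq windows on GRCm38.p6), of which 3 are shown because their transcripts were found most often, the co-receptors *Gas1* and *Cdon* in 54 of 67 cells each, and least often, the target *Ptch1* in 10. Each stretch is the 250 bases before the annotated start, 5′ to 3′ on the gene's strand, with CpG dinucleotides in capitals. The *Gas1* stretch is chr13:60177536-60177785 (minus strand), that of *Cdon* is chr9:35451826-35452075 (plus strand) and that of *Ptch1* is chr13:63565736-63565985 (minus strand).
Gas1: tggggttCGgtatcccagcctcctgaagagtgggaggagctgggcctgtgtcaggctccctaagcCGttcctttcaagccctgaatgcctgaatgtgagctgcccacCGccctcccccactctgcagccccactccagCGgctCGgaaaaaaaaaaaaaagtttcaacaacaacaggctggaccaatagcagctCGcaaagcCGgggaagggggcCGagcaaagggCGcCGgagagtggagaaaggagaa
Cdon: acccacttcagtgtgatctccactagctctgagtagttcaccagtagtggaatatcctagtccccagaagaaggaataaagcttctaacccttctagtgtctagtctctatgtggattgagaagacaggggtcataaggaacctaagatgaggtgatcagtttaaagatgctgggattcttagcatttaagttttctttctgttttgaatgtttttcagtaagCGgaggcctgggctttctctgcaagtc
Ptch1: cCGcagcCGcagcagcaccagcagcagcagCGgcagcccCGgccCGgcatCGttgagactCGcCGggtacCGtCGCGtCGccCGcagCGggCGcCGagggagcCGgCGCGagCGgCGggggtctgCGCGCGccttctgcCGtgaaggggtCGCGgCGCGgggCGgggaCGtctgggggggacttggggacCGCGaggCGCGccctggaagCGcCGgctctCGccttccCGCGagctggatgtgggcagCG
The *Ptch1* stretch held 41 CpGs, that of *Gas1* 10 and that of *Cdon* 1, against a median of 6 over the 32851 windows of the same length. *Gli3* had 34, *Gli2* 22, *Smo* 15 and *Sufu* 8. The Gli consensus GACCACCCA, searched on both strands, stood in none of the 7 stretches and in 0.225% of all windows. *Gli1* and *Boc* had no entry.

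Signals were quantile normalized over all arrays and put on a log2 scale. A gene was called detected in a cell when its signal reached 828 (9.69 on the log2 scale), the median signal of the phe RNA added at 20 copies to every cell. The added RNA itself ranged between 171 and 3898 over the E11 AP-like cells, so a value near the threshold is imprecise in any 1 cell. As the labels give no type for E11 and E16 cells, these were clustered within each stage on marker genes that include no Hedgehog gene. At E11 this gave 3 neuron-like, 3 IP-like (intermediate progenitor) and 23 AP-like cells, and at E16 3 neuron-like, 8 IP-like and 17 AP-like cells. IP markers detected per cell had a median of 10 of 10 in E11 IP-like and 8 of 10 in E16 IP-like cells, against 1 of 10 in the AP-like cells of either stage. Neuron markers had a median of 8 of 11 in E11 neuron-like and 7 of 11 in E16 neuron-like cells, against 1 and 2 of 11 in the AP-like cells of the same stages. IP-like and neuron-like cells were less clearly apart from each other. Neuron-like cells held a median of 6 of 10 IP markers at both stages, and E11 IP-like cells 7 of 11 neuron markers. With another clustering rule (average linkage) neuron-like and IP-like cells numbered 1 and 5 at E11 and 4 and 7 at E16. AP-like cells then still numbered 23 and 17. The E11 neuron-like cluster held none of the neuron list among its 10 leading genes, which were led by *Dner* and *Rasgrp1*. *Reln*, *Lhx5* and *Calb2*, markers of Cajal-Retzius cells, were found in 2, 1 and 1 of its 3 cells. One E11 cell, left out by the study for low quality, was not used.

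The 10 NICD/p18, neurosphere and E12 arrays stood apart from the rest. All 10 had been scaled to the same 2% trimmed mean, whereas the 58 E11 and E16 arrays had different and lower trimmed means, 47.5 to 298, so that condition and array processing cannot be told apart in any comparison that crosses these sets. In the 4 NICD/p18 cells the added phe RNA lay at 1176 to 4678 after normalization, above the 828 median in each, and in neurosphere cell W6D at 13.1. The introduced genes were checked first. *Cdkn2c* was at 8.87, 6.29, 5.84 and 8.69 on the log2 scale in the 4 NICD/p18 cells, all under the threshold, against a mean of 7.45 ± 2.18 (SD, n = 23) in E11 AP-like cells. *Notch1* was at 9.20, 9.30, 10.30 and 10.64, against 8.89 ± 2.81. Whether these probe sets lie within the introduced sequences is not known here, so neither value checks the label. The NICD/p18 cells held 10 to 12 of 14 AP markers, 1 to 10 of 11 neuron markers and 0 to 2 of 7 mitosis markers.

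**Figure D1:**
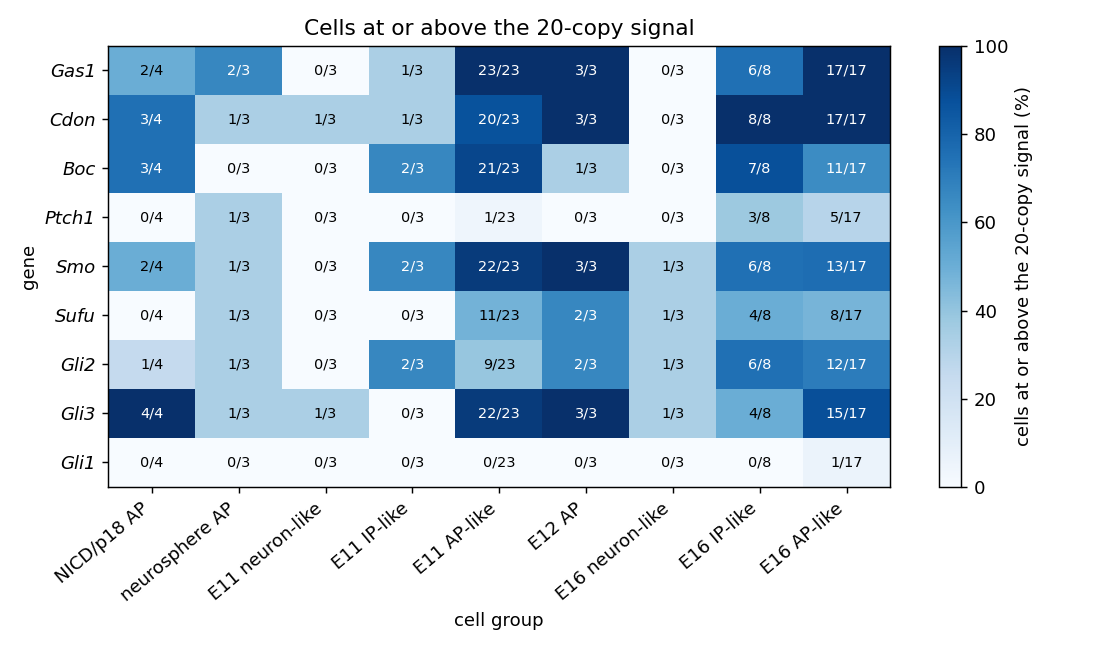
Share of cells at or above the 20-copy signal for the 9 genes (rows) in 9 cell groups (columns), with the number of cells detected over all cells of the group printed in each tile. *Gas1* was detected in 17 of 17 E16 and 23 of 23 E11 AP-like cells, *Gli1* in 1 cell of all 67.

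The 3 co-receptors were widely found in AP-like cells, *Gas1* in all of them. *Gas1*, a membrane-anchored co-receptor, was detected in all 23 E11 AP-like cells, all 3 E12 APs and all 17 E16 AP-like cells. Its log2 signal in E11 AP-like cells ran between 11.30 and 13.30 with a median of 12.77, in E12 APs it was 12.97, 11.62 and 12.82, and in E16 AP-like cells it ran between 11.12 and 12.78 with a median of 11.81. These ranges overlapped, and the SD between cells, 0.54 at E11 and 0.48 at E16, was the smallest of any member in each of the 2 groups. The other cells at E11 were all lower. The E11 neuron-like cells had 8.66, 2.77 and 8.57 and the E11 IP-like cells 9.89, 2.12 and 9.61, all below the lowest E11 AP-like cell. The 8 E16 IP-like cells instead ran between 8.42 and 13.52 with a median of 12.05, and 6 of 8 were detected, while the E16 neuron-like cells had 2.33, 6.28 and 2.89. Its other detectable probe set was detected in 24 of the 54 cells in which this one was, and in no further cell. By that probe set the E11 AP-like cells ran between 2.89 and 12.49 and overlapped the other E11 cells.

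*Cdon*, an immunoglobulin family co-receptor, was detected in 20 of 23 E11 AP-like cells, 3 of 3 E12 APs and 17 of 17 E16 AP-like cells. The log2 signal in E11 AP-like cells ran between 6.82 and 12.99 with a median of 11.67, in E12 APs it was 13.27, 13.06 and 12.88, and in E16 AP-like cells it ran between 10.50 and 13.18 with a median of 12.25. Group means were 11.38 ± 1.46 at E11 (SD, n = 23), 13.07 ± 0.19 at E12 (n = 3) and 12.21 ± 0.84 at E16 (n = 17). The 8 E16 IP-like cells were as high as the AP-like cells, at 11.34 to 13.15, median 13.02. By contrast, 1 of 3 E11 IP-like cells was detected, with values of 6.42, 9.45 and 10.85.

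*Boc*, the close relative of *Cdon*, was detected in 21 of 23 E11 AP-like cells, 1 of 3 E12 APs and 11 of 17 E16 AP-like cells. In E11 AP-like cells it ran between 5.40 and 12.16 with a median of 10.65, in E12 APs it was 4.84, 10.77 and 8.83, and in E16 AP-like cells it ran between 4.87 and 12.31 with a median of 10.14. A second probe set, read from the same amplified material and array in each cell, correlated with the first (Pearson r = 0.84 across 67 cells). It was detected in 14 of 23 E11 and 12 of 17 E16 AP-like cells. Most AP-like cells carried all 3 co-receptors at once: 11 of 17 at E16 and 19 of 23 at E11. So did 6 of 8 E16 IP-like cells and 2 of 4 NICD/p18 cells, but none of the 3 E11 IP-like, 3 E11 neuron-like, 3 E16 neuron-like or 3 neurosphere cells.

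**Figure D2:**
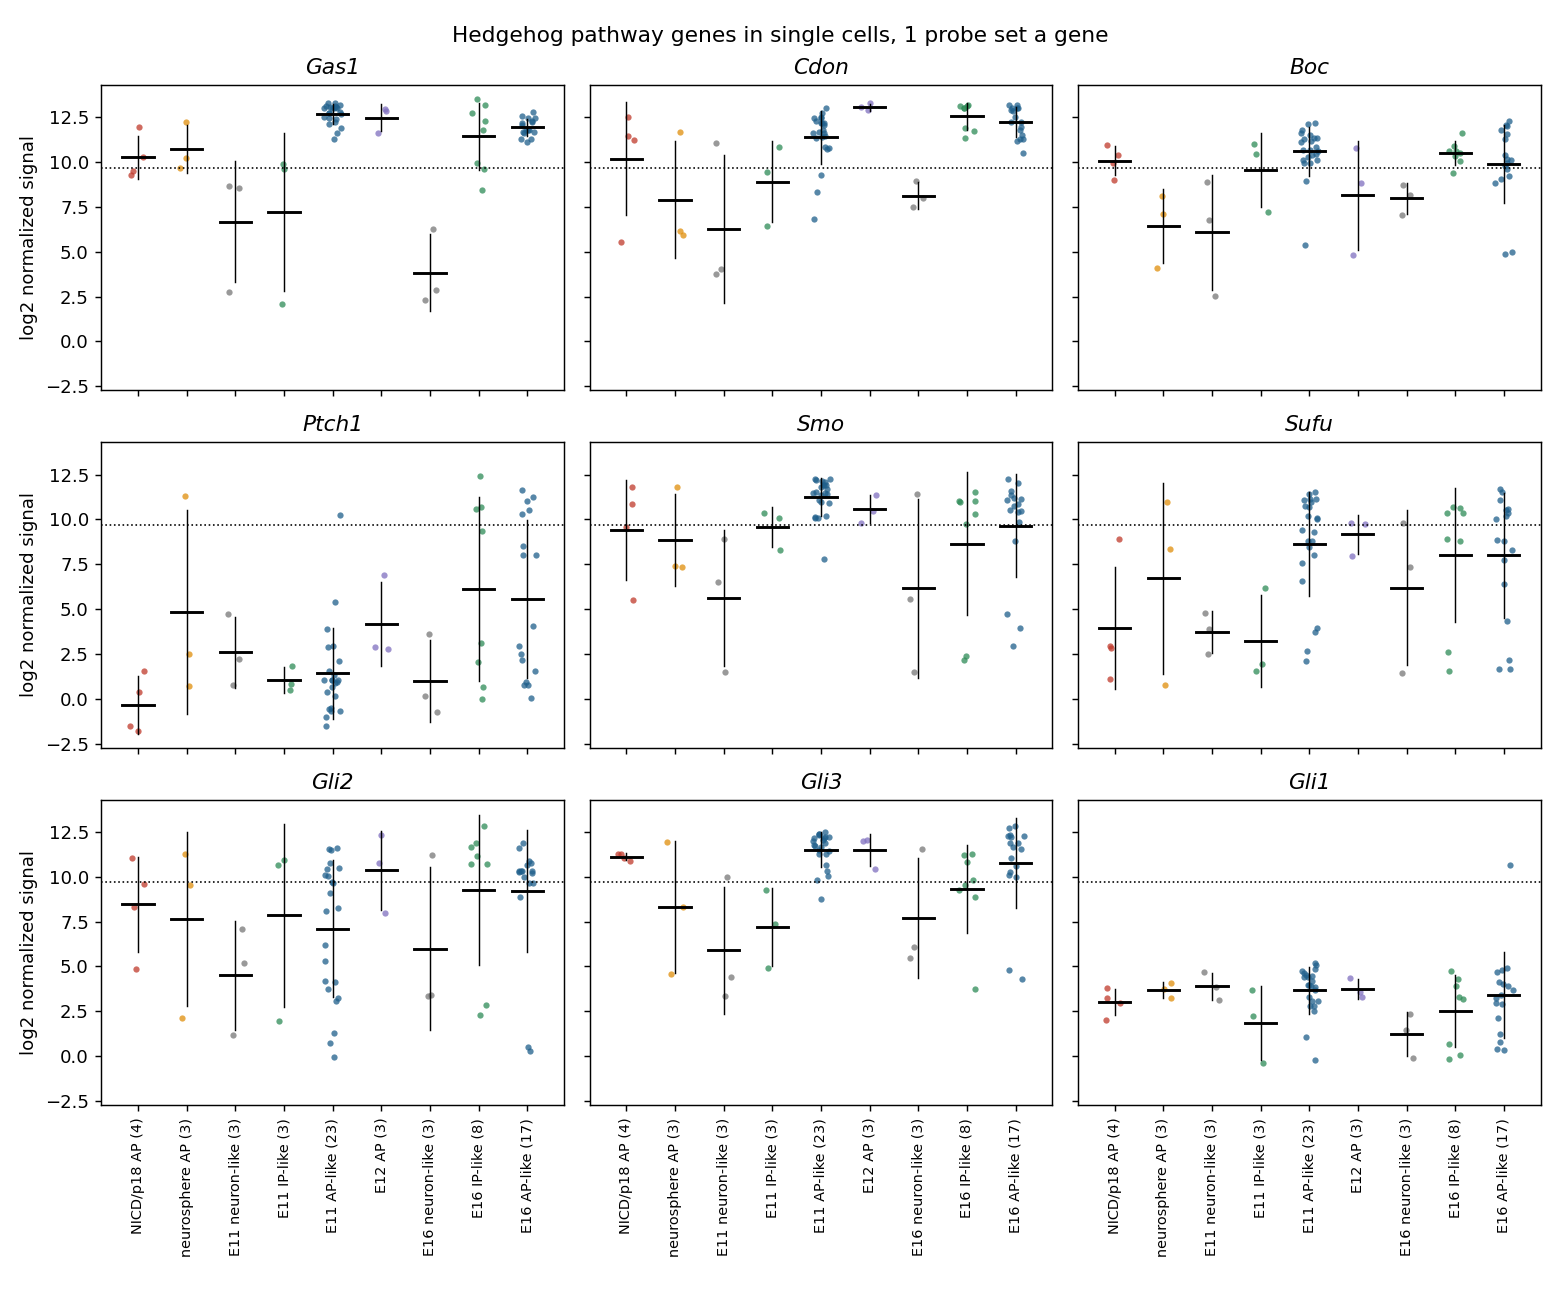
Log2 normalized signal of each gene (1 probe set a gene, 1 panel a gene) in every cell, by group, with the number of cells in brackets. Points are cells, horizontal bars are group means, vertical bars are 1 SD between cells, and the dotted line is the 20-copy signal at 9.69. *Ptch1* and *Gli1* sit well below the line in most cells, *Gas1* above it in every AP-like cell.

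*Smo*, the signal transducer, was detected in 22 of 23 E11 AP-like cells, 3 of 3 E12 APs and 13 of 17 E16 AP-like cells. In E11 AP-like cells its log2 signal ran between 7.79 and 12.27 with a median of 11.46, in E12 APs it was 9.82, 10.50 and 11.37, and in E16 AP-like cells it ran between 2.96 and 12.26 with a median of 10.77. The highest cells of the stages were alike, and the lower E16 mean came with a wider SD, 2.88 against 1.04 at E11. The second probe set was detected in all 50 cells in which the first was, and in 2 more. *Ptch1*, the receptor and a pathway target, was detected in 1 of 23 E11 AP-like cells (4.35%, exact Clopper-Pearson 95% interval 0.11 to 21.9%), 0 of 3 E12 APs and 5 of 17 E16 AP-like cells (29.4%, 10.3 to 56.0%). These intervals overlap and cover counting error over cells only, so they do not show whether the stages differ. Its log2 signal in E11 AP-like cells ran between -1.54 and 10.27 with a median of 1.03, in E12 APs it was 6.89, 2.76 and 2.87, and in E16 AP-like cells it ran between 0.06 and 11.66 with a median of 4.07. The 5 detected E16 AP-like cells stood at 10.30 to 11.66. The 3 detected E16 IP-like cells had 10.58, 12.39 and 10.71, whereas none of 4 NICD/p18 cells, at -1.53, 0.39, 1.58 and -1.79, came near the threshold. The other *Ptch1* probe sets, 1439663_at and 1450824_at, were detected in no cell.

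*Sufu*, the inhibitor that binds Gli proteins, was detected in about as many AP-like cells at both stages, 8 of 17 at E16 and 11 of 23 at E11. Its E11 AP-like values ran between 2.11 and 11.52 with a median of 9.39, and its E16 AP-like values between 1.64 and 11.70 with a median of 8.83. No NICD/p18 cell was detected (2.81, 8.89, 1.10 and 2.93). For 0 of 4 the approximate limit, 3 divided by the number of cells, is 75.0%, which is rough for so few cells and not an exact interval. By the same probe set none of the 3 E11 IP-like cells (1.97, 1.54 and 6.15) or the 3 E11 neuron-like cells was detected. Another *Sufu* probe set, 1420848_at, was detected in 1 E11 IP-like cell, 41G (10.53).

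The Gli factors differed from one another. *Gli3*, mainly a repressor, was detected by probe set 1456067_at in 22 of 23 E11 AP-like cells, 3 of 3 E12 APs and 15 of 17 E16 AP-like cells. Its log2 signal in E11 AP-like cells ran between 8.77 and 12.52 with a median of 11.77, in E12 APs it was 10.44, 11.99 and 12.06, and in E16 AP-like cells it ran between 4.32 and 12.84 with a median of 11.68. All 4 NICD/p18 cells were detected within a narrow range (11.04, 10.89, 11.29 and 11.26). *Gli2*, the main activator, was detected in 9 of 23 E11 AP-like cells (39.1%, 19.7 to 61.5%), 2 of 3 E12 APs and 12 of 17 E16 AP-like cells (70.6%, 44.0 to 89.7%). These 2 intervals overlap as well, and likewise do not show whether the stages differ. In E11 AP-like cells *Gli2* ran between -0.05 and 11.60 with a median of 8.25, in E12 APs it was 10.79, 7.96 and 12.33, and in E16 AP-like cells it ran between 0.30 and 11.88 with a median of 10.30. Both Gli factors were detected in 11 of 17 E16 AP-like and 9 of 23 E11 AP-like cells, and *Gli3* without *Gli2* in 4 and 13. *Gli1*, the target and amplifier of the pathway, was detected in 1 cell of 67 (1.49%, 0.04 to 8.04%), an E16 AP-like cell at 10.67 in which *Ptch1* was at 2.15. All other cells lay at or below 5.18 for *Gli1*.

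The probe sets of *Gli3* did not give the same picture in every group. A second one, 1455154_at, was detected together with the first in 43 cells, alone in 6, and the first alone in 8. In the 3 E11 IP-like cells the first probe set read 9.27, 4.93 and 7.39 and the second 11.36, 10.81 and 9.75, so the first was detected in none and the second in all. In NICD/p18 cells the second read 1.00, 6.44, 10.86 and 11.66, detected in 2 of 4 against 4 of 4 for the first. A statement on *Gli3* in these 2 groups therefore depends on the probe set, and which transcripts each one reads is not known here.

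**Figure D3:**
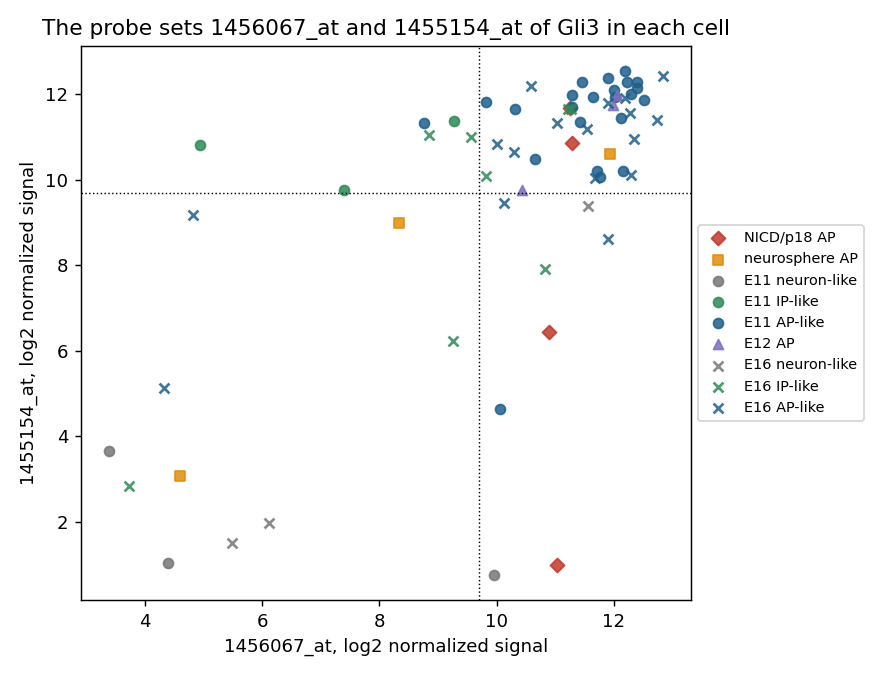
Log2 normalized signal of *Gli3* by probe set 1456067_at (x axis) and 1455154_at (y axis) in each of 67 cells, marked by group, with the 20-copy signal as dotted lines. The 43 cells at the upper right were detected by both, the 3 E11 IP-like cells lie at the upper left, and 2 of the 4 NICD/p18 cells lie at the lower right.

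Counted over the 9 genes, AP-like cells of both stages carried a similar number, 5.82 ± 1.19 per cell at E16 (SD, n = 17) and 5.61 ± 0.78 at E11 (n = 23), with 5.67 ± 0.58 in the 3 E12 APs. E16 IP-like cells carried 5.50 ± 0.93 (n = 8), whereas E11 IP-like cells had 4, 2 and 2. Neuron-like cells had the fewest, at most 1 at E11 and at most 2 at E16. The NICD/p18 cells held 5, 3, 2 and 5 and the neurosphere cells 5, 2 and 1. The mean share of the 9 genes detected in a cell was 64.7% in E16 AP-like cells and 7.41% in E11 neuron-like cells. Of all genes detected in any cell, the mean share was 26.9% in E16 AP-like cells and 25.7% in E11 neuron-like cells. Across the groups it ran between 25.7% (E11 neuron-like) and 27.2% (E11 AP-like). Quantile normalization gives every array the same spread of signals, so these shares cannot show whether total detection differed. With the threshold multiplied by 2, AP-like cells carried 4.06 members at E16 and 4.39 at E11.

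**Figure D4:**
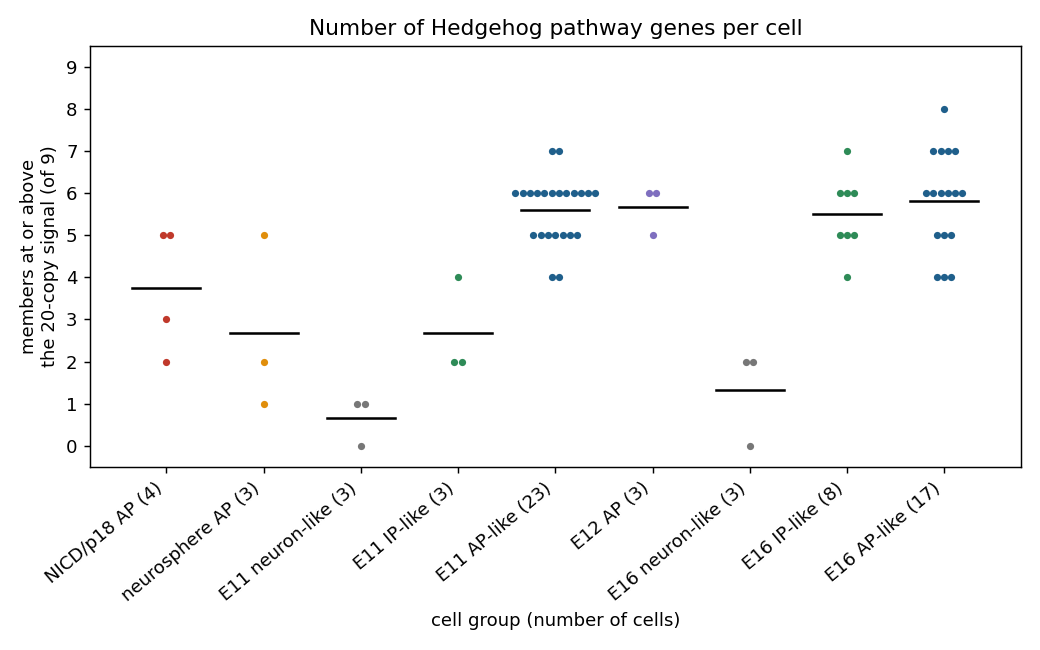
Number of the 9 Hedgehog pathway genes at or above the 20-copy signal in each cell (y axis) by group (x axis, number of cells in brackets); each point is a cell and the bar is the group mean. E16 and E11 AP-like cells hold 4 to 8 and 4 to 7 genes, neuron-like cells 0 to 2.

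For the comparison of stages and types, a gene was called different when the group means differed by at least 1 on the log2 scale and the higher mean reached the 20-copy signal. Between E16 and E11 AP-like cells 1 of 9 members was called, against 6.97% of the 10541 genes that reached the 20-copy signal in any cell (2.37% higher and 4.6% lower). It was *Smo*, at 9.65 ± 2.88 in E16 AP-like (n = 17) and 11.25 ± 1.04 in E11 AP-like cells (n = 23), a difference of -1.60. By its second probe set the difference was -0.67 and not called, while that of *Boc* was -1.0 and called. *Gas1* (-0.74), *Gli3* (-0.74), *Boc* (-0.72) and *Sufu* (-0.64) differed by less, and *Cdon* by 0.84. *Gli2* (2.11) and *Ptch1* (4.17) had the largest differences upward, but both means stayed under the 20-copy signal, so neither was called, except that *Gli2* passed without cell E16-78O (2.67) or E16-81J (2.66). The median over the 9 members was -0.64, against -0.12 over all genes. Over all cells by stage label alone, with no typing, 2 of 9 were called against 4.19% of genes (1.58% higher and 2.61% lower): *Cdon* at 11.87 ± 1.54 in E16 cells (n = 28) and 10.59 ± 2.47 in E11 cells (n = 29), and *Smo* at 8.99 ± 3.47 in E16 cells and 10.49 ± 2.24 in E11 cells.

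In E12 APs against E11 AP-like cells the median over members was 0.08, the same as over all genes. Of the 9 members, 3 passed the call, against 9.64% of genes (7.6% higher and 2.04% lower). *Cdon* was higher by 1.69. *Gli2* was higher by 3.27, but without replicate 3 the difference was 2.28 and the E12 mean lay under the threshold. *Boc* differed by -2.45, and without replicate 1 the difference was -0.80 and not called, without replicate 2 -3.77.

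Intermediate progenitors and neurons at E11 stood lower than AP-like cells for most members. In E11 IP-like against E11 AP-like cells 5 of 9 members were called, all lower, against 11.5% of genes (6.62% higher and 4.87% lower). *Gas1* averaged 7.21 ± 4.41 in the 3 IP-like cells and 12.68 ± 0.54 in the 23 AP-like cells, a difference of -5.47 that was -2.93 without cell 42M. *Gli3* differed by -4.30 (by -0.69 and not called with its second probe set), *Cdon* by -2.47 (-1.23 without cell 41G) and *Smo* by -1.67 (-1.03 without cell 45O). *Boc*, at -1.05, turned to 0.13 without cell 42M, was -1.77 without 41G, and was just under the call without AP-like cell 41B (-0.98), 42J (-0.98) or 45B (-0.99). By its second probe set the IP-like cells read 10.57, 8.41 and 9.61, and it was not called. With second probe sets 2 members were called, against 11.5% of genes, and *Gas1*, *Gli3* and *Boc* were not among them. *Sufu*, at -5.41, was not called since its AP-like mean of 8.63 lay under the threshold. In E11 neuron-like cells the same 5 genes were called lower, against 14.4% of genes (6.75% higher and 7.64% lower): *Gas1* at -6.01, *Smo* at -5.61 (-3.53 without cell 32J), *Gli3* at -5.59, *Cdon* at -5.10 and *Boc* at -4.52 (-2.76 without cell 30F). By the probe set used here, *Gas1* was the only member whose cells did not overlap between the groups, in each of the 2 comparisons. Of all genes, 0.323% had every E11 IP-like cell and 1.09% every E11 neuron-like cell below every AP-like cell. By the second *Gas1* probe set the groups overlapped in both comparisons. AP-like cells then ran between 2.89 and 12.49, IP-like cells had 9.11, 3.88 and 3.74, and neuron-like cells 3.93, 3.36 and 4.25. By this probe set *Gas1* was called in neither comparison. By the second *Gli3* probe set the neuron-like cells (0.77, 3.66 and 1.06) all lay below the lowest AP-like cell (4.64), a difference of -9.50. Which member stood apart in neuron-like cells therefore depends on the probe set. Each IP-like cell shares the number in its title with at least 1 AP-like cell, and within these numbers *Gas1* differed by -10.75 to -2.77, *Gli3* by -7.17 to -2.50, *Cdon* by -5.75 to -0.55, *Boc* by -4.02 to -0.44 and *Smo* by -3.43 to -0.86.

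The E16 IP-like cells did not show the E11 pattern. Against E16 AP-like cells 1 of 9 members was called, against 6.54% of genes (3.58% higher and 2.96% lower): *Gli3*, at 9.32 ± 2.44 in the 8 IP-like cells and 10.76 ± 2.49 in the 17 AP-like cells, a difference of -1.44. That call rested on cell E16-75O, the lowest at 3.73, without which the difference was -0.64 and no member was called (0). Without cell E16-81O *Gli2* was called at 1.05, and *Smo* was called at -1.41 to -1.05 when 1 of the AP-like cells 76F, 77M, 81C and 81J was left out. The other differences ran between -0.99 (*Smo*) and 0.62 (*Boc*, 1.41 and called with its second probe set), and the median over members was 0.00, against -1.83 for the E11 comparison. Whether the 2 comparisons differ was not tested. Mitosis markers were detected at a median of 7 of 7 in both IP-like groups, while AP markers had a median of 6.5 of 14 in E16 and 2 of 14 in E11 IP-like cells and neuron markers 3.5 of 11 in E16 and 7 of 11 in E11 IP-like cells. The part of these markers in the differences was not tested. No pair of groups adjacent in the order of means, for any member, lay further apart than the larger SD of the pair (72 of 72 steps). Steps between neighbours in a sorted order are small, so this does not show that no groups stand apart. Groups further apart in the order can differ by more than the larger SD. *Gas1* did in E11 IP-like against E11 AP-like cells, at -5.47 with a larger SD of 4.41.

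Neurosphere APs had lower means of *Gas1*, *Cdon* and *Boc*, and NICD/p18 APs of *Gas1* and *Cdon*, than the E11 AP-like cells, which are the same 23 cells in every comparison with them. In neurosphere APs 5 of 9 members were called, all lower, against 10.6% of genes (7.34% higher and 3.22% lower). *Boc* was at 8.09, 7.09 and 4.10, detected in none of 3, a difference of -4.17. *Cdon* was at 11.67, 6.14 and 5.91 (-3.47), *Gli3* at 11.95, 8.34 and 4.60 (-3.21), *Smo* at 11.83, 7.36 and 7.38 (-2.39) and *Gas1* at 10.25, 12.26 and 9.67 (-1.95). By second probe sets *Gli3* (-3.77) and *Smo* (-2.14) were called as well. *Gas1* was not, at 8.39, 6.97 and 3.99, since neither group mean reached the threshold. Cell W2G was the high one for 4 of these 5 genes, and without it the differences of *Cdon*, *Gli3* and *Smo* were -5.35, -5.03 and -3.88. Without cell W6D that of *Gli3* was -1.36. *Gli2*, at 0.55, was called at 3.30 without W6D. Neurosphere cells held 6 or 7 of 7 mitosis markers, against 2 to 7 (median 6) in E11 AP-like cells, and 2 of 3 carried *Olig2*.

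In NICD/p18 APs against E11 AP-like cells 3 of 9 members were called, all lower, against 12.8% of genes (6.2% higher and 6.57% lower). *Gas1* was at 10.30, 9.52, 9.29 and 11.93 in the 4 NICD/p18 cells, with a mean of 10.26 ± 1.19, against 12.68 ± 0.54 in E11 AP-like cells, a difference of -2.42. By its second probe set the 4 cells read 10.15, 8.87, 4.07 and 10.46, inside the E11 AP-like range of 2.89 to 12.49. Neither group mean then reached the threshold, so *Gas1* was not called. *Smo* was at 10.84, 5.49, 9.57 and 11.79 (-1.83, and -0.51 and not called without cell M5K). *Cdon* was at 11.46, 12.52, 5.56 and 11.22 (-1.19, -1.97 without M5K, and 0.35 without cell M6C). *Gli3*, at -0.38, was called at -3.83 with its second probe set. Against E16 AP-like cells 2 were called, both lower, against 10.6% of genes (6.45% higher and 4.16% lower): *Gas1* (-1.68) and *Cdon* (-2.03, and -0.48 and not called without M6C). With second probe sets *Gli3* (-3.02), *Smo* (-1.08) and *Boc* (1.22) were called and *Gas1* (-0.75) was not. Against neurosphere APs 3 were called, all higher, against 15.1% of genes (5.45% higher and 9.69% lower). They were *Boc* (3.66), whose 4 NICD/p18 values all lay above the 3 neurosphere values (as did those of 4.09% of all genes), *Gli3* (2.82) and *Cdon* (2.28). The *Gli3* difference was -0.06 with the second probe set and 0.98, not called, without cell W6D. That of *Cdon* was not called without M5K (1.5), and lay between 1.28 without W6D and 4.16 without W2G. The 2 NICD/p18 cells with 9 and 10 neuron markers, M5K and M6C, carried 3 and 2 members, and the other 2, with 3 and 1 neuron markers, carried 5 each. The part of these markers in the differences was not tested.

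**Figure D5:**
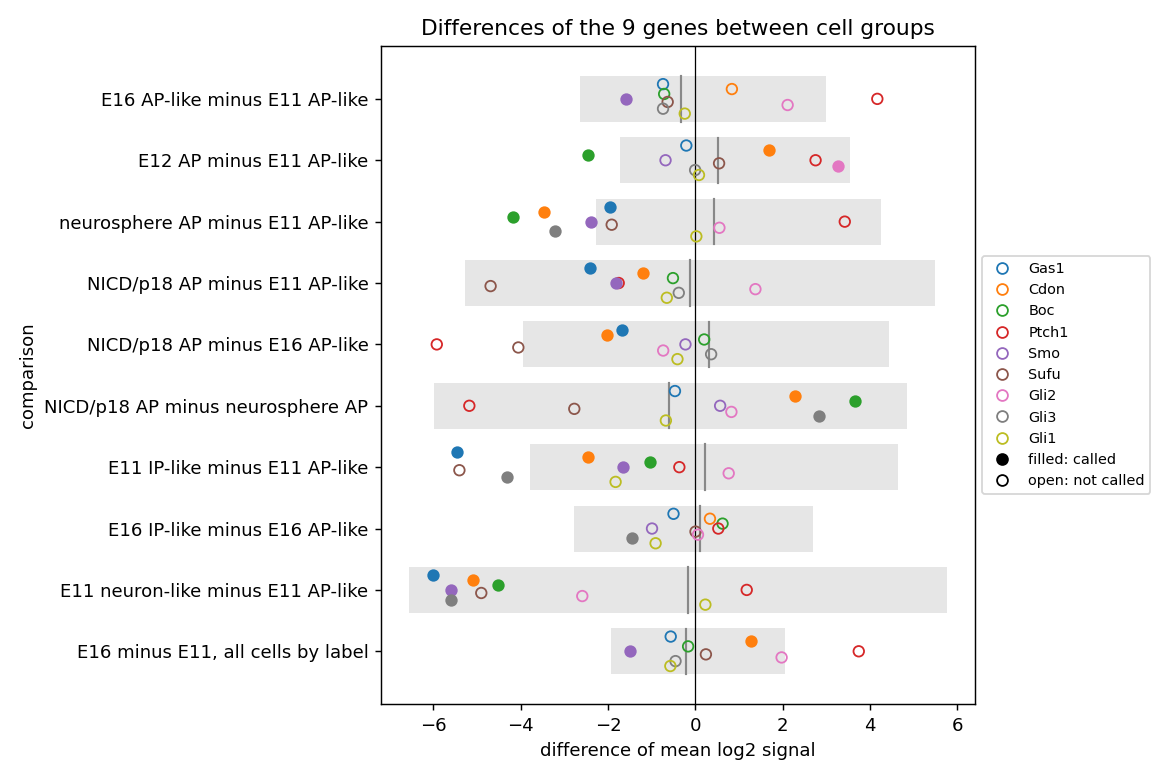
Difference of mean log2 signal (x axis) for the 9 genes in each of 10 comparisons (y axis), first-named group minus second. Filled circles passed the call and open ones did not, the grey bar spans the 5th to 95th percentile of genes with a group mean at or above the 20-copy signal, and the grey line is their median. The 5 called genes of E11 IP-like and of E11 neuron-like cells all lie left of 0, as in neurosphere APs.

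Cells with *Ptch1* were few and lay mostly at E16. Of the 10 cells detected, 5 were E16 AP-like, 3 E16 IP-like, 1 E11 AP-like and 1 a neurosphere AP. All 5 of the E16 AP-like cells also held *Gli2*, and 4 of them *Smo*, but none held *Gli1*. Among all 17 E16 AP-like cells *Gli2* was detected in 12, *Smo* in 13 and *Gli1* in 1. Of the 3 E16 IP-like cells with *Ptch1* 2 held *Gli2*, against 6 of 8 in that group. The E11 AP-like cell and the neurosphere cell did not hold it (3.24 and 2.14). *Hhip*, a secreted decoy and target of the pathway, was detected in a single cell, E16-81E (10.82), which held *Ptch1* at 11.22. Another, E16-76F, had *Ptch1* at 10.30, *Hhip* just under the threshold at 9.60 and *Olig2* at 10.06. *Olig2*, a ventral and oligodendrocyte lineage gene, was detected in 5 cells, 3 of which were *Ptch1* cells. None of the other 8 ventral and interneuron markers measured was detected in any cell, *Nkx2-1*, *Gsx2* and *Dlx2* included. Choroid plexus and cortical hem markers were likewise at 0 cells. Of the blood list 3 genes were found, in E11 AP-like cells only, and of the microglia, vessel and mesenchyme lists at most 1 gene in any group. Across the 57 E11 and E16 cells, with values below the threshold set to it, *Ptch1* had its highest Pearson r to a member with *Cdon* (0.35).

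The wider pathway was given by 67 further genes, of which 63 had a probe set and 48 reached the threshold in some cell. Of the 67, 11 were listed as targets of the pathway in other tissues, not as its components. *Ccnd1*, *Ccnd2* and *Mycn* are among these 11, and whether they respond to the pathway in these cells was not tested. No ligand was found: *Shh*, *Ihh* and *Dhh* were detected in 0 of 67 cells, for which the approximate limit is a share of up to 4.48%. Of 14 cilium and membrane genes, such as *Kif7* (12 cells), *Gpr161* (13) and *Rab23* (15), none was detected in more than 15 cells. Kinases and turnover genes with wide roles outside the pathway were common, among them *Csnk1a1* (62 of 67 cells), *Cul1* (61) and *Prkaca* (60). Between E16 and E11 AP-like cells 2 of the 48 were called higher and 3 lower (10.4% of the 48, against 6.97% of all genes). *Ccnd1*, a cyclin D gene, was at 7.26 ± 2.84 in E16 and 11.85 ± 0.94 in E11 AP-like cells, a difference of -4.59, and was detected in 6 of 17 and 22 of 23. *Mycn*, a growth-promoting transcription factor, was at 8.30 ± 3.10 in E16 and 11.74 ± 1.25 in E11 AP-like cells (-3.44), with the same cell counts. The remaining ones were *Csnk1d* (1.62), *Fbxw11* (1.36) and *Csnk1a1* (-1.27), which encode kinases and a ubiquitin ligase subunit that act on Gli proteins and on many others.

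*Mycn* and *Ccnd1* were lower in several other groups as well. Where all or nearly all cells of a group lie under the threshold, as for *Mycn* in E11 IP-like cells or *Arrb1* in AP-like cells, the size of the difference is loosely set, since such values spread widely. In E11 IP-like cells *Mycn* was at 3.32 ± 1.47 (n = 3; -8.41 against AP-like), *Ccnd1* at 8.63 ± 2.97 (-3.22) and *Ccnd2* at 9.90 ± 4.75 (-2.13), and 5 of the 48 genes were called higher and 3 lower (16.7%, against 11.5% of all genes). At E16 the IP-like cells had *Mycn* at 10.34 ± 2.88 (n = 8), higher by 2.04 than the AP-like cells, with 1 gene higher and 3 lower (8.33%, against 6.54%). E11 neuron-like cells had 3 higher and 6 lower (18.8%, against 14.4%), *Mycn* at -6.96 and *Ccnd1* at -3.72 among them. In neurosphere APs 5 were higher and 4 lower (18.8%, against 10.6%), and *Mycn*, at 2.69 ± 0.89 (n = 3), differed by -9.05 and was detected in 0 of 3. In NICD/p18 APs 6 were higher and 3 lower against E11 AP-like cells (18.8%, against 12.8%). *Arrb1*, a beta-arrestin that binds active Smo and many other receptors, was detected in 4 of 4 NICD/p18 cells (11.51 ± 0.22) and in 1 of 17 E16 and 1 of 23 E11 AP-like cells. The ubiquitin ligase genes *Smurf1* (4.77) and *Smurf2* (3.41) were higher too, and *Mycn* (-7.75) and *Ccnd1* (-3.77) lower. Against E16 AP-like cells 7 were called higher and 1 lower in NICD/p18 cells (16.7%, against 10.6%), and against neurosphere APs 7 and 3 (20.8%, against 15.1%). In E12 APs 4 were higher and 2 lower (12.5%, against 9.64%), with *Prkacb* (3.71) and *Fbxw11* (2.55) first.

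Among 5385 genes detected in at least 10 of the 57 E11 and E16 cells, those most like each member were found by Pearson r. These cells mix both stages and the AP-like, IP-like and neuron-like types. The values are therefore only a description, and they take in differences between stages and types. *Gas1* had the highest values, with *Sox2* (0.70), *Anp32b* (0.70) and *Id4* (0.69), the first and last of which are AP marker genes. *Gli3* was followed by *Bex4* (0.59), *Ajuba* (0.56) and *C1qbp* (0.56), and *Cdon* by *Dbi* (0.59), *Ddah1* (0.52) and *Mif* (0.51). For *Smo* the first were *Txndc5* (0.54), *Ptpru* (0.50) and *Lrig1* (0.50), for *Gli2* *Dph5* (0.50), *Igdcc4* (0.49) and *Notch1* (0.48), for *Sufu* *Trim24* (0.50), *B2m* (0.45) and *Atp1b1* (0.43), and for *Boc* *Idh2* (0.48), *Smurf2* (0.46) and *Ranbp3* (0.46). Between members across these 57 cells the highest r was 0.45, for *Smo* and *Gas1*, and that of *Gli2* and *Gli3* was -0.15. Within the 40 AP-like cells of both stages these were 0.16 and -0.07. There *Gas1* and *Cdon* had -0.22, against 0.41 across the 57 cells, and the highest was 0.33, for *Ptch1* and *Cdon*.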

How the data were processed

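The arrays were Affymetrix Mouse Genome 430 2.0, hybridised with material amplified from single lysed cells, to which 4 bacterial RNAs had been added, phe at 20 copies and lys at 1000. The deposited values are MAS5 signals, intensity on a linear scale, 1 per probe set and array. All 68 arrays were quantile normalized together and put on a log2 scale with no offset, which lets values below the threshold spread widely. Of the 45101 probe sets, 34958 name 1 gene, 932 several and 9211 none; a gene was read from its probe set of highest mean. Genes reaching the 20-copy signal in at least 1 of 67 cells (10541) formed the background. Cells were grouped by complete linkage on 1 minus Pearson r over AP, IP and neuron markers, 3 clusters a stage. No 2 arrays were identical (2278 pairs). Members and lists were chosen with earlier results of these data known. Named genes were all members, called genes of the wider list (at most 6 a comparison) and the 3 genes most like each member where that member was found in enough cells (all but *Gli1* and *Ptch1*). Exact intervals, and the approximate limits on counts of 0 (3 divided by the number of cells), cover counting error only. The difference step was run on simulated cells with known differences. These were planted in genes whose E11 AP-like mean reached the threshold, and false calls among unchanged genes were not counted. The number of cells limits the precision. Some genes of the wider list were not analysed here. Python 3.11.15, pandas 2.3.3 and scipy 1.17.1 were used.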

Additional observations from a re-analysis of the deposited data

Results flagged for a closer look

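Among the 18 sets of values tested, the 9 members in the 4 NICD/p18 and in the 8 E16 IP-like cells, 1 held a cell far from the others. *Gli3* was at 3.73 in IP-like cell E16-75O, against 8.86 in the next lowest cell, a gap of 0.68 of the whole range. If values spread normally, chance flags about 1 in 20 such sets. Log2 values under the threshold spread widely and the sets share cells, so the rate here is not known. The same cell had the highest *Ptch1* of the group, at 12.39, and *Gli2* at 2.86.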

How the results depend on the processing

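Counts of the 9 members called changed with the choice of probe set and with values under the threshold. With the mean over all probe sets of a gene as its level, no member was called in any comparison (0), except 1 in E12 against E11 AP-like cells. That mean takes in the 7 of 23 probe sets detected in no cell, which pull levels under the 20-copy signal that a call needs. These counts therefore cannot show whether a call holds by another probe set, and the share of all genes was not recomputed this way. With values under the 20-copy signal set to it, the count was 0 for E16 against E11 AP-like cells, for NICD/p18 against neurosphere APs and for E16 against E11 by label, and 1 for E12 and for NICD/p18 against either AP-like group. The shares of all genes called fell as well, to 1.63%, 6.88% and 0.892% in the comparisons with a count of 0. They fell to 1.59% for E12, and to 6.33% and 4.71% for NICD/p18 against E11 and E16 AP-like cells. The medians over members in this setting were -0.93 (neurosphere), -0.42 (NICD/p18), -0.54 (IP-like) and -1.12 (neuron-like), each against E11 AP-like cells. For E16 against E11 AP-like cells the count was 2 with a common trimmed mean, with an offset of 100 and with a 20-copy signal from PheX-3, and 4 with scaling to the lys RNA. In that order the share of all genes called was 7.26%, 5.91%, 8.94% and 9.22%, against 6.97% in the main setting. By label the count was 1 with lys scaling, with the threshold multiplied by 2 and with second probe sets (5.21%, 2.36% and 4.18% of all genes). The threshold multiplied by 2 gave 1 for E12 against E11 and for NICD/p18 against neurosphere APs (5.36% and 9.80% of all genes). It also gave 1.00, 4.39, 4.00, 3.88 and 4.06 members per cell in E11 IP-like, E11 AP-like, E12, E16 IP-like and E16 AP-like cells. The median of E11 neuron-like against AP-like cells was -5.68 with lys scaling, -2.89 with the offset, -3.03 over all probe sets and -4.02 with average linkage, which moved that of IP-like cells to -3.02. Levels relative to the 20-copy signal were -6.23 in E11 neuron-like and 0.13 in E16 IP-like cells with lys scaling. Second probe sets, chosen after seeing the data as was normalization of the 58 E11 and E16 arrays alone, gave 4 called (10.6% of all genes) and a median of -2.0 for NICD/p18 against E16. They gave 2 called for IP-like cells of either stage (11.5% of all genes at E11 and 6.55% at E16). The *Gli3* difference in NICD/p18 against neurosphere APs was then -0.059, and E11 AP-like and E12 cells carried 4.61 and 4.33 members per cell. Leaving out 1 cell gave medians of -3.88 to -1.42 for neurospheres and -4.29 to -3.84 for E11 neuron-like cells, 1 to 3 called for NICD/p18 against E16, and, added after seeing the data, 0 to 2 for E16 IP-like against AP-like cells. *Cdon* ran between -1.97 and 0.35 (without M6C) in NICD/p18 against E11 AP-like cells, and *Boc* between -1.77 and 0.13 (without 42M) in E11 IP-like cells. Some members became called without 1 cell: *Sufu* (1.16, without replicate 1) and *Smo* (-1.09, without replicate 3) in E12, *Gli2* in E11 IP-like cells (3.71, without 45O), and in NICD/p18 cells *Smo* against E16 (1.08) and neurosphere cells (1.88) without M5K, *Gli2* against E16 (-1.29 without 78O, -1.28 without 81J) and neurosphere cells (-1.93 without W6D) and *Gas1* against neurosphere cells (-1.03 without M6H). Single members under other settings moved by less than 1 SD in 919 cases, by more in 70, and 1 reversed. The cause of these moves was not tested. No paired analysis was possible because replicate numbers only name cells. The labels do not say what the number in a cell's title means. Within the 4 numbers that E16 IP-like and AP-like cells share, a comparison added after seeing the data, *Gli3* differed by -4.07 to -0.55. Each group is 1 sample, so no difference has a replicate check.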
